A study of Mus musculus with 14 samples.

Results

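This account describes 33 antioxidant genes in cells grown from the bone marrow of diabetic and healthy mice. The genes are the transcription factor NRF2 (gene Nfe2l2), its regulators, and the enzymes of the glutathione, thioredoxin, peroxiredoxin and dismutase systems. They were taken by symbol out of 17890 genes in the table. All 33 had counts in every library and all 33 passed the filter on low counts, among 12839 genes tested. Male mice of the inbred strain C57BL/6J, 8 weeks old at the start, gave the marrow. Streptozotocin, which kills pancreatic beta cells, was given to the mice behind the D libraries for 5 days, with 42 to 45 mg/kg each day. These mice counted as diabetic above 16.9 mmol/L blood glucose and were kept hyperglycaemic for 6 weeks. The M libraries came from the healthy controls. Marrow progenitors of both groups then spent 7 days in culture at 5 mmol/L glucose with M-CSF, the macrophage growth factor, so both groups were measured at equal glucose. There were 4 D and 4 M libraries, with 19048248 to 20028111 estimated counts each. No label explains the letter M, which was taken to mean healthy because D fits the diabetic mice. Were the letters used the other way, every direction below would be reversed. Whether each library is a separate animal is not stated, so p-values measure only the spread between these libraries, possibly technical. A further 6 samples, from the study's second phase, were not analysed here.

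NRF2 is the main transcription factor of the antioxidant response. KEAP1 holds it in the cytoplasm and marks it for degradation, oxidants and electrophiles release it, and BACH1 competes with it as a repressor at the same DNA elements. Its targets make and recycle glutathione, reduce thioredoxin and peroxiredoxins, and break down haem. Macrophages and neutrophils carry much of this machinery because they make oxidants themselves.

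The cells are labelled as macrophages, and the check of that label gave mixed levels. The macrophage markers Csf1r (209 ± 22.5 CPM in D and 162 ± 9.97 CPM in M libraries, SD, n = 4 each) and Adgre1 (87.3 ± 22.4 and 46.7 ± 6.91 CPM) were present. CPM are a gene's counts scaled to a common library size with TMM factors. The mature macrophage genes Mertk and C1qa were at most 2.41 CPM in any library, while the neutrophil gene S100a8 stood at 12286 ± 2215 CPM in D and 8996 ± 609 CPM in M libraries. The neutrophil markers summed to 44786 to 69710 CPM in D and 38993 to 40793 CPM in M libraries, with 11 of 18 tested markers higher in D and 0 lower. Macrophage markers summed to 7158 to 11574 against 4740 to 5555 CPM, erythroid markers to 1864 to 7856 against 5385 to 9185 CPM, and B cell markers to 117 to 313 against 1328 to 1678 CPM. Of 15 tested macrophage markers 10 were higher in D and 1 lower. Of 14 erythroid markers 0 were higher and 2 lower, and of 14 B cell markers 0 were higher and 11 lower. Over all tested genes 17.4% were higher and 17.3% lower, by the test given below. Mast cell and basophil markers summed to 1056 to 1431 CPM in D and 545 to 686 CPM in M libraries, with 7 of 8 tested higher in D, and megakaryocyte markers to 140 to 213 and 311 to 419 CPM, with 6 of 6 lower. In none of these lists was a marker at 0 in every library. In such bulk samples, fewer cells of a type and less RNA per cell cannot be told apart. The part of these cell types in the results below was not tested.

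**Figure D1:**
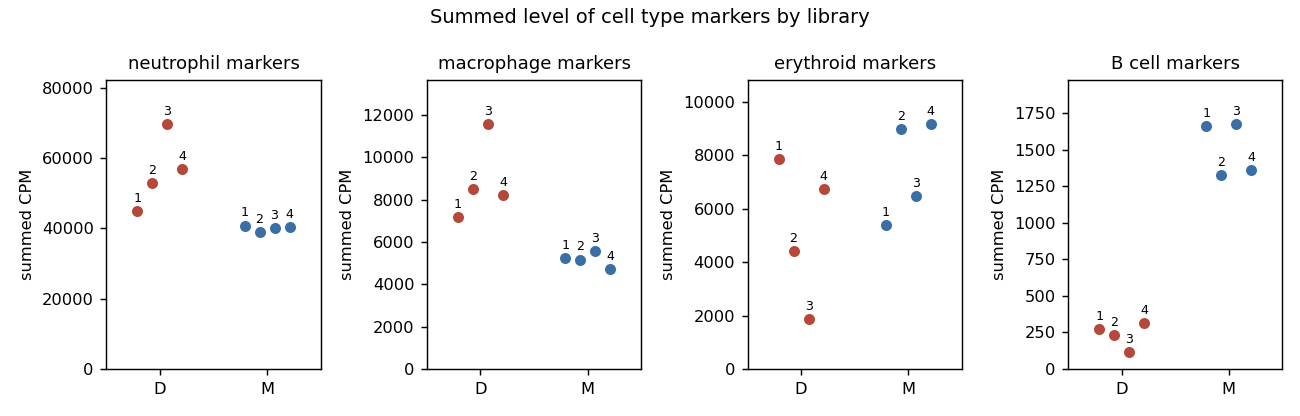
Summed CPM of neutrophil, macrophage, erythroid and B cell markers in each D and M library, with replicate numbers beside the points. All 4 D libraries lie above all 4 M libraries for neutrophil and macrophage markers and below them for B cell markers, and D replicate 3 is highest for neutrophil markers (69710 CPM) and lowest for erythroid markers (1864 CPM).

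The comparison of D with M libraries asks which antioxidant transcripts differ in cells of diabetic origin once glucose is equal. Among the 33 genes some were higher and others lower in D libraries, in most roles both. Slc7a11, Gclc and Gclm of glutathione synthesis were lower, as were Hmox1, Nqo1, Srxn1 and Prdx1. The largest decreases were those of Srxn1 (0.525-fold), Hmox1 (0.532-fold) and Gclc (0.535-fold). Glutathione reductase, glutaredoxin, Mgst1, Txn1, Prdx5 and Msra were higher, by 1.22-fold to 1.67-fold, and so were Nfe2l2 itself and Bach1. Of the 33 genes 8 were higher and 12 lower at an adjusted p under 0.05 by edgeR's quasi-likelihood test, 60.6% in all. Over all 12839 tested genes 17.4% were higher and 17.3% lower, 34.7% in all. The 33 genes were chosen with earlier results of these data known, so the difference between these shares is no test of the list. The median log2 fold change of the 33 genes was -0.19, against -0.03 over all tested genes. Every D library lay above every M library for 7 of the 33 and below for 9, where the shares over all tested genes were 16.3% and 18.4%.

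**Figure D2:**
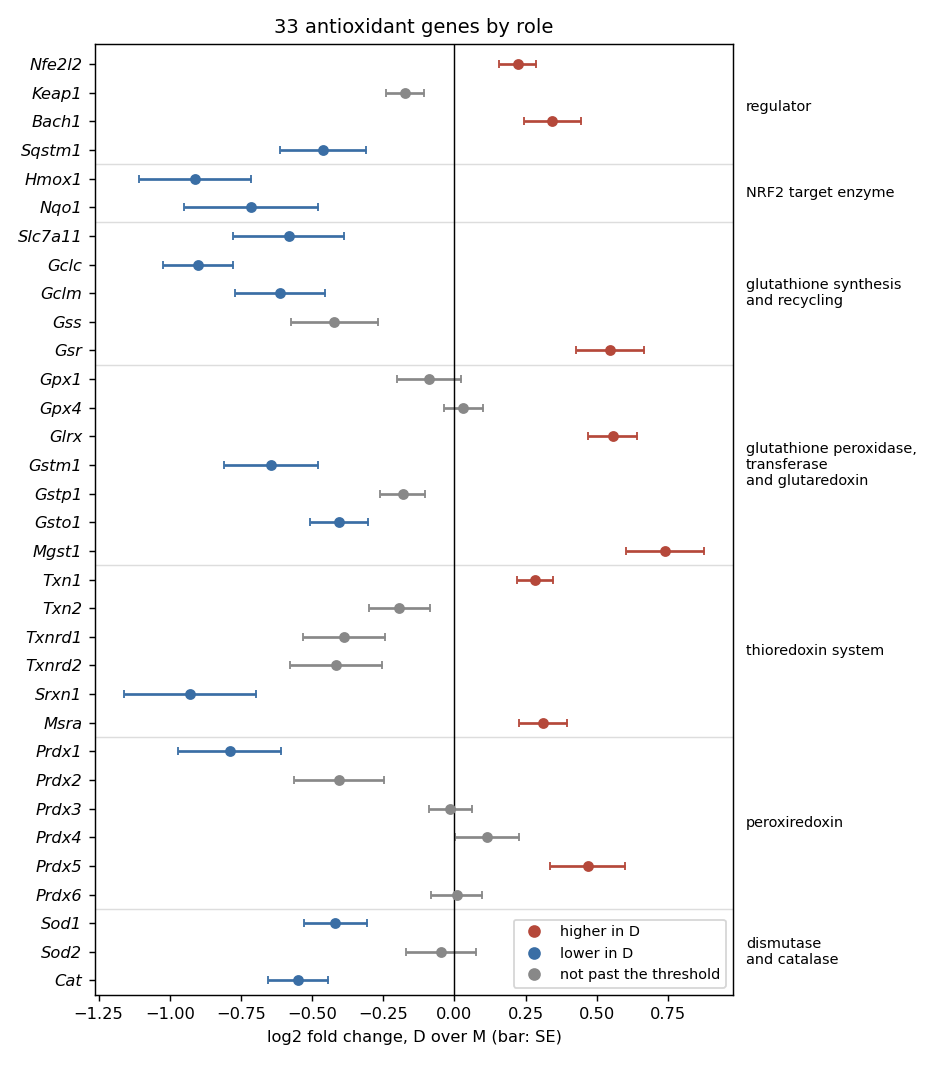
Log2 fold change (D over M) of each of the 33 genes by role, with the standard error as a bar and colour for the call. Hmox1, Srxn1 and Gclc lie near -0.9 and Mgst1 at 0.74. The signs of Gpx4 (0.03) and Prdx6 (0.01) turned with library totals, FPKM and TPM.

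Among the regulators, Nfe2l2 (NCBI gene 18024, chromosome 2, 75675513 to 75704663, build GRCm38) was slightly higher in D libraries. D replicates 1 to 4 held 343, 358, 361 and 346 CPM, against 290, 314, 316 and 287 CPM for M replicates 1 to 4, and the groups did not overlap. The log2 fold change was 0.22 ± 0.06 (SE, n = 4 per group; adjusted p = 0.0218). Bach1, the repressor, stood at 195, 223, 263 and 247 CPM in D replicates and at 159, 194, 189 and 188 CPM in M replicates, again without overlap (0.34 ± 0.10, adjusted p = 0.0233). Keap1 was lower in each D library than in each M library, at 49.5 to 56.6 against 58.2 to 65.0 CPM, but did not pass (-0.17 ± 0.07, adjusted p = 0.0689, or 0.0500 and just under the threshold with the replicate number as a block, and 0.0206 to 0.0290 with library totals, FPKM or TPM). Sqstm1 codes for p62, an autophagy receptor that binds KEAP1 and is itself an NRF2 target. It was lower, at 398, 395, 388 and 352 CPM in D and 656, 625, 417 and 415 CPM in M replicates (-0.46 ± 0.15, adjusted p = 0.0367). M replicates 3 and 4 lay only just above the D libraries. The calls of Nfe2l2 and Bach1 ended with library totals alone as scaling (log2 fold changes 0.12 and 0.23, adjusted p = 0.158 and 0.0594) and with FPKM and TPM, which move the median of all genes by -0.09 to -0.11 on the log2 scale. That of Nfe2l2 also ended when D replicate 2, M replicate 1 or M replicate 4 was left out (adjusted p = 0.0528 to 0.0765), that of Bach1 without D replicate 4 or M replicate 1 (adjusted p = 0.0599 and 0.0654) and with its most abundant transcript alone (adjusted p = 0.196), and that of Sqstm1 without any 1 library except M replicates 3 and 4 (adjusted p = 0.0693 to 0.109) and with its most abundant transcript (adjusted p = 0.0739).

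Both NRF2 target enzymes outside the glutathione and thioredoxin systems were lower. Hmox1 (NCBI gene 15368, chromosome 8, 75093618 to 75100593), the inducible haem oxygenase that breaks haem down, held 288, 227, 174 and 197 CPM in D replicates 1 to 4, against 568, 420, 334 and 346 CPM in M replicates 1 to 4. The highest D library lay below the lowest M library, and the log2 fold change was -0.91 ± 0.20 (adjusted p = 0.00702). Between same-numbered libraries the log2 ratios were -0.98, -0.89, -0.94 and -0.81, a narrower spread than that of the levels. Nqo1, a quinone reductase, had a low level of 6.09, 9.50, 9.93 and 8.28 CPM in D and 17.6, 17.6, 8.81 and 11.4 CPM in M replicates, so the groups overlapped (-0.72 ± 0.24, adjusted p = 0.0398). Its call ended with the replicate number as a block (adjusted p = 0.0844). It also ended without any 1 library except M replicates 3 and 4 (adjusted p = 0.0609 to 0.106). Voom, no filter and the fit on the most abundant transcript of every gene ended it as well (adjusted p = 0.0548 to 0.0984). Nqo1 has a single transcript, so its own counts were unchanged in that last fit (-0.72).

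Glutathione is a tripeptide made from cysteine, glutamate and glycine. Slc7a11, the subunit that gives the cystine importer its specificity, was lower in each D library than in any M library: 223, 180, 108 and 203 CPM in D replicates 1 to 4 against 278, 293, 230 and 267 CPM in M replicates (-0.58 ± 0.19, adjusted p = 0.0425). D replicate 3 was the lowest of all. Gclc (NCBI gene 14629, chromosome 9, 77754535 to 77794489), the catalytic subunit of the rate-limiting enzyme glutamate-cysteine ligase, stood at 64.8, 50.9, 40.5 and 52.4 CPM in D and 106, 99.6, 88.5 and 96.2 CPM in M replicates, well apart (-0.90 ± 0.12, adjusted p = 0.000529). Its modifier subunit Gclm held 113, 92.0, 78.8 and 95.1 CPM in D and 185, 152, 109 and 134 CPM in M replicates (-0.61 ± 0.16, adjusted p = 0.0143). D replicate 1 and M replicate 3 overlapped for Gclm, although the log2 ratios of same-numbered libraries, D over M, were all below 0 (-0.73 to -0.46). Gss, glutathione synthetase, was at 11.4 ± 0.713 CPM in D and 15.3 ± 3.62 CPM in M libraries (SD, n = 4 each) and just missed (-0.42 ± 0.15, adjusted p = 0.0516, or 0.0278 with the block and 0.0235 to 0.0267 with library totals, FPKM or TPM). Gsr, glutathione reductase, which returns oxidized glutathione to its reduced form, went the other way: 876, 1202, 1337 and 1223 CPM in D against 751, 849, 809 and 767 CPM in M replicates (0.55 ± 0.12, adjusted p = 0.00587). D replicate 1 was the nearest to the M libraries. The call of Slc7a11 ended when D replicate 2 or 4 or M replicate 1, 2 or 4 was left out (adjusted p = 0.0521 to 0.0959) and when no filter was used (adjusted p = 0.0768), that of Gclm without D replicate 3 (adjusted p = 0.0501), and that of Gclc with its most abundant transcript alone (-0.72, adjusted p = 0.192). Gss passed without M replicate 3 or 4 (adjusted p = 0.0496 and 0.0230) and turned to 0.36 with its most abundant transcript. Gss overlaps exons of the opposite-strand gene Acss2, which had a log2 fold change of 0.58 but did not pass (adjusted p = 0.0730).

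**Figure D3:**
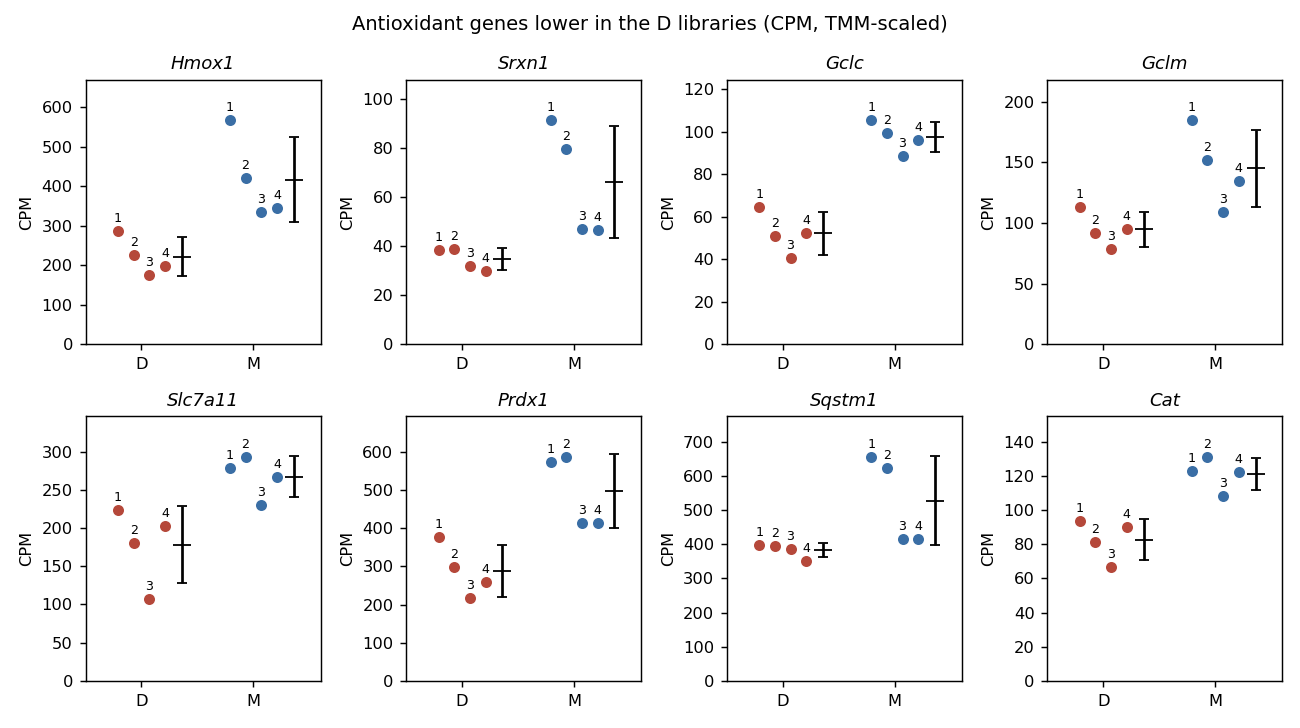
CPM of 8 genes that were lower in D libraries, by library, with replicate numbers beside the points and mean ± SD at the right of each group. For Hmox1, Srxn1, Gclc, Slc7a11, Prdx1, Sqstm1 and Cat every D library lies below every M library, and for Srxn1 and Sqstm1 M replicates 1 and 2 lie well above M replicates 3 and 4.

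NRF2 binds the antioxidant response element, whose core is TGACNNNGC, so the promoter windows of these genes were searched for it on both strands. The windows, from RefSeq on build GRCm38.p6, hold 250 bases before to 50 bases after an annotated start, which can lie inside the gene. There were 36 windows in all, and a gene with several had more chances of a match. A window was available for 28 of the 33 genes. Hmox1 and Gclc (lower in D), Gsr and Msra (higher) and Prdx6 (not passing) had none, so they were not searched. The core was present in at least 1 window of 4 of 10 genes that were lower in D, of 2 of 6 that were higher and of 1 of 12 that did not pass. It was present in 1739 of 10328 tested genes with a window (16.8%). A match describes letters only and does not show that NRF2 binds there. Only this exact pattern was counted, so the shares depend on it. Similar letters were left out, such as TGAGTCAGC in the windows of Srxn1 (lower in D) and Gstp1 (not passing). The stretches around each match are shown to let the cores be compared, 5′ to 3′ on the gene's strand, with the core in capitals. The first 4 belong to genes lower in D, the next 2 to genes higher in D, and that of Txnrd1 to a gene that did not pass.
Gclm, chr3:122245413-122245441, plus strand: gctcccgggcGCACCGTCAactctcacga
Prdx1, chr4:116685456-116685484, plus strand: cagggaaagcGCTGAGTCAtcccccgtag
Sod1, chr16:90220696-90220724, plus strand: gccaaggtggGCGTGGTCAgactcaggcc
Srxn1, chr2:152105542-152105570, plus strand: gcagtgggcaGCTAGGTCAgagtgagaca
Mgst1, chr6:138140461-138140489, plus strand: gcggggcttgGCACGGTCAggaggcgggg
Nfe2l2, chr2:75704885-75704913, minus strand: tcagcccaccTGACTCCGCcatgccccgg
Txnrd1, chr10:82859104-82859132, plus strand: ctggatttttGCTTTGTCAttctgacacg
The core of Nfe2l2 lies on the gene's own strand and the other 6 on the opposite strand. That of Prdx1, read on the opposite strand, is TGACTCAGC and begins 133 bases before the start. The core of Srxn1 lies 28 bases after the start. Prdx1, Gclm and Sod1 were lower in D and hold a core upstream of the start, that of Sod1 at 56 bases before it. The whole windows of Prdx1 and Gclm are given as examples, with the core in capitals.
Prdx1, chr4:116685349-116685648, plus strand: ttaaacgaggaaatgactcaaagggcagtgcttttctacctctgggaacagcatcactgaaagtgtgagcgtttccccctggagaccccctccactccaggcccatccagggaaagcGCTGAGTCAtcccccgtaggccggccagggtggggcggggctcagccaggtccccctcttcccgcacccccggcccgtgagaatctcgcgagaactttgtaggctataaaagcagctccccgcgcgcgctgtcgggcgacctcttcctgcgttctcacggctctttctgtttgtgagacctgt
Gclm, chr3:122245307-122245606, plus strand: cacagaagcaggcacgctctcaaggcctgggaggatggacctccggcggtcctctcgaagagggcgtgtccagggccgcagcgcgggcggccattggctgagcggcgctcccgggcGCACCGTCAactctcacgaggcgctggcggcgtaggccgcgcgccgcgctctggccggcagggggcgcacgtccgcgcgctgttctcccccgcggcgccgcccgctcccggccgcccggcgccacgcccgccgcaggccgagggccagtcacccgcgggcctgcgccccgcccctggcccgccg

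Enzymes that use glutathione went both ways. Glrx, the cytosolic glutaredoxin, which removes glutathione from protein thiols, was at 275, 279, 350 and 307 CPM in D against 212, 195, 212 and 204 CPM in M replicates (0.56 ± 0.09, adjusted p = 0.000933). Its call held under each of the 22 alternatives. Mgst1, a membrane-bound glutathione transferase and peroxidase, showed the largest increase of the 33 genes, with 143, 148, 219 and 175 CPM in D and 98.2, 87.9, 109 and 114 CPM in M replicates (0.74 ± 0.14, adjusted p = 0.00270). D replicate 3 was the highest for both genes. Gstm1, a cytosolic transferase, was lower, at 235, 149, 176 and 163 CPM in D and 354, 292, 226 and 258 CPM in M replicates (-0.65 ± 0.17, adjusted p = 0.0138). Only D replicate 1 and M replicate 3 overlapped. Gsto1, an omega-class transferase, was lower without overlap, at 58.1 ± 6.65 CPM in D and 77.0 ± 8.49 CPM in M libraries (-0.40 ± 0.10, adjusted p = 0.0116). Gstp1, the pi-class transferase, did not pass (45.5 ± 3.16 against 51.6 ± 4.02 CPM; -0.18 ± 0.08, adjusted p = 0.0971, or 0.0455 without M replicate 1 and 0.0348 to 0.0496 with library totals, FPKM or TPM). Neither glutathione peroxidase passed. Gpx1, the abundant cytosolic form, was at 521 ± 74.1 CPM in D and 554 ± 60.2 CPM in M libraries (adjusted p = 0.568), and Gpx4, which reduces lipid peroxides in membranes, at 157 ± 5.77 and 154 ± 10.6 CPM (adjusted p = 0.738). Gstm1 and Gstp1 have near-identical relatives, and a second entry of the Gstp1 transcript held the same values as the first and was summed with it, so their levels are uncertain.

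In the thioredoxin system 2 genes were higher, 1 was lower and 3 did not pass, that is 50% called against 34.7% of all tested genes. Txn1, cytosolic thioredoxin, was higher in D at 397, 411, 426 and 416 CPM, against 325, 336, 352 and 343 CPM in M replicates. Its log2 fold change was 0.28 ± 0.06 (adjusted p = 0.00603), and same-numbered libraries differed by 0.28 to 0.29 in each of the 4 pairs. Srxn1 (NCBI gene 76650, chromosome 2, 152105524 to 152111376), sulfiredoxin, which restores over-oxidized peroxiredoxins, had the largest decrease of the 33 genes: 38.2, 38.9, 32.1 and 29.8 CPM in D and 91.3, 79.7, 46.9 and 46.4 CPM in M replicates (-0.93 ± 0.23, adjusted p = 0.0151). M replicates 1 and 2 were far above the other M libraries, and the call ended without D replicate 3 (-0.88, adjusted p = 0.0610). Msra, which reduces oxidized methionine in proteins, was higher at 219 ± 20.3 CPM in D and 176 ± 14.0 CPM in M libraries, without overlap (0.31 ± 0.08, adjusted p = 0.0166). The call of Msra ended without M replicate 2 or 4 (adjusted p = 0.0527 and 0.0545) and with its most abundant transcript (adjusted p = 0.174). Txnrd1, the cytosolic thioredoxin reductase, stood at 157, 154, 116 and 133 CPM in D and 221, 205, 145 and 160 CPM in M replicates, and did not pass without the block (-0.39 ± 0.14, adjusted p = 0.0594). With the block it was -0.38 ± 0.06 (adjusted p = 0.00264). Replicates 1 and 2 were the highest in both groups. It also passed without M replicate 3 (adjusted p = 0.0244), in DESeq2's test and with library totals, FPKM or TPM (adjusted p = 0.0322 to 0.0420). The mitochondrial pair did not pass in the fit without the block: Txnrd2 was at 13.6 ± 3.496 CPM in D and 18.1 ± 1.12 CPM in M libraries (adjusted p = 0.0686), and Txn2 at 80.3 ± 13.6 and 91.9 ± 4.99 CPM (adjusted p = 0.185). Txnrd2 passed with the block (adjusted p = 0.0375) and with library totals, FPKM or TPM (adjusted p = 0.0407 to 0.0473), and both passed without D replicate 1 (adjusted p = 0.0104 for Txnrd2 and 0.0144 for Txn2). A second entry of the leading Txnrd2 transcript, with identical values, held 44.8% of the gene's counts.

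Of the 6 peroxiredoxins, thiol enzymes that remove hydrogen peroxide, 1 was lower, 1 higher and 4 did not pass. Their 33.3% called is near the 34.7% of all tested genes. Prdx1 (NCBI gene 18477, chromosome 4, 116685599 to 116700000), the cytosolic form and an NRF2 target, stood at 376, 298, 216 and 260 CPM for D replicates 1 to 4 and at 573, 587, 414 and 413 CPM for M replicates 1 to 4. The groups did not overlap (-0.79 ± 0.18, adjusted p = 0.00870). Prdx5, found in mitochondria, peroxisomes and cytosol, was higher at 384, 440, 586 and 482 CPM in D and 410, 324, 316 and 319 CPM in M replicates (0.47 ± 0.13, adjusted p = 0.0195). M replicate 1 lay above D replicate 1. The call of Prdx5 ended with the block (adjusted p = 0.0547) and without M replicate 2, 3 or 4 (adjusted p = 0.0545 to 0.0574). It also ended in the fit on the most abundant transcript of every gene (0.46, adjusted p = 0.0643). The leading Prdx5 transcript held 99.9% of the gene's counts in D and 99.8% in M libraries, so its own counts hardly changed there. Prdx2, abundant in red cells, was at 111, 87.3, 62.1 and 98.2 CPM in D and 102, 118, 120 and 135 CPM in M replicates (-0.41 ± 0.16, adjusted p = 0.0725, or 0.0253 without D replicate 1 and 0.0438 to 0.0485 with FPKM, TPM or DESeq2's test). Erythroid markers summed to 7856, 4413, 1864 and 6725 CPM in D and 5385, 9001, 6496 and 9185 CPM in M replicates, so D replicate 3 was lowest for both. A link between Prdx2 and erythroid content was not tested. Mitochondrial Prdx3 (64.9 ± 6.18 in D and 65.5 ± 1.22 CPM in M libraries), secretory-pathway Prdx4 (9.68 ± 0.859 and 8.94 ± 0.897 CPM) and Prdx6 (241 ± 17.8 and 240 ± 27.5 CPM) had adjusted p of 0.451 to 0.955. Prdx2 overlaps exons of the opposite-strand genes Junb and Rnaseh2a, and Prdx5 those of Trmt112, and whether the counting used strand is not given in the sources used here.

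Superoxide dismutases turn superoxide into hydrogen peroxide, and catalase breaks the peroxide down in peroxisomes. Cat was lower in each D library, at 93.4, 81.1, 66.6 and 90.1 CPM in D and 123, 131, 108 and 122 CPM in M replicates (-0.55 ± 0.11, adjusted p = 0.00323). Sod1, the cytosolic copper-zinc enzyme, was lower at 97.3, 77.1, 65.3 and 80.2 CPM in D and 111, 106, 96.9 and 114 CPM in M replicates (-0.42 ± 0.11, adjusted p = 0.0139). D replicate 1 and M replicate 3 were all but equal for Sod1. Sod2, the mitochondrial manganese enzyme and a known target of inflammatory signalling, was at 83.3 ± 9.99 CPM in D and 86.1 ± 14.1 CPM in M libraries and did not pass (-0.05 ± 0.12, adjusted p = 0.790). D replicate 3 was the lowest D library for Cat, Sod1 and erythroid markers, and it was the lowest D library for 58.3% of all genes lower in D. M replicate 1, the lowest M library for erythroid markers, was the lowest M library for neither Cat nor Sod1. Whether erythroid content bears on these genes was not tested.

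**Figure D4:**
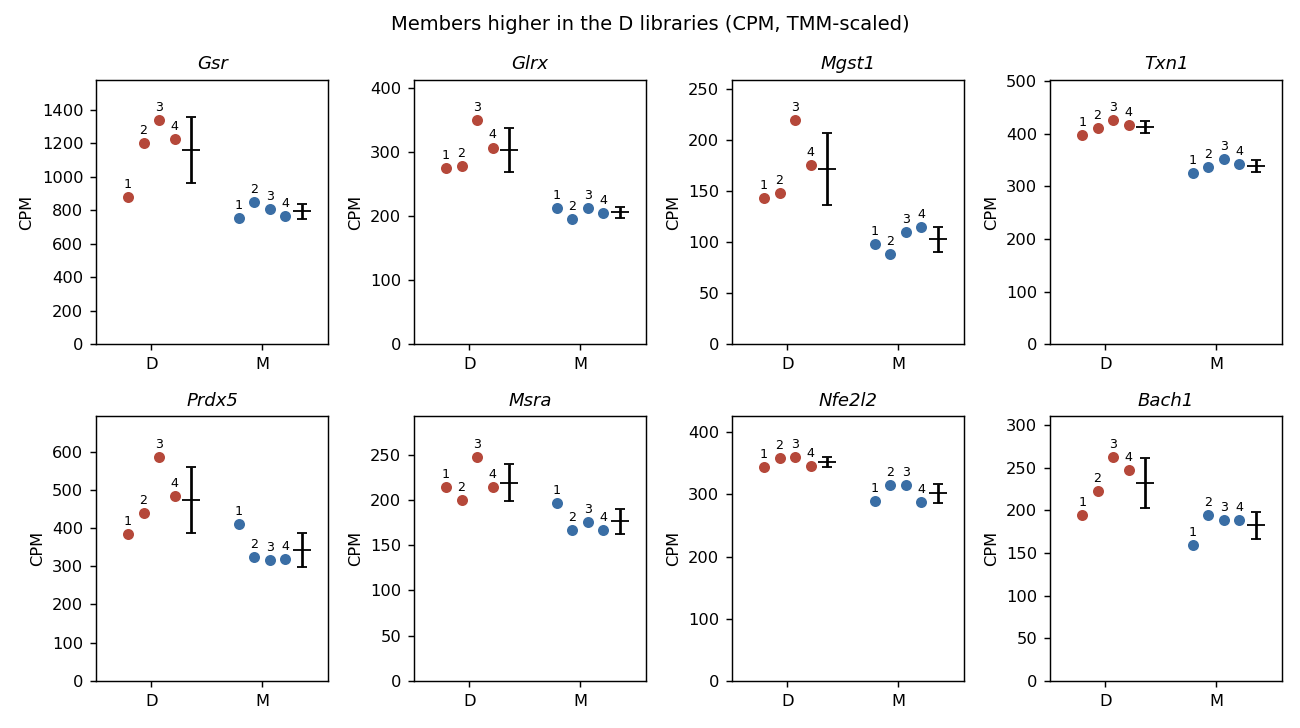
CPM of the 8 genes that were higher in D libraries, by library, with replicate numbers beside the points and mean ± SD at the right of each group. D replicate 3 is the highest library for all 8 genes, and only Prdx5 has an M library (replicate 1, 410 CPM) above a D library.

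The 12 lower genes shared an order of libraries inside the M group. In 11 of the 12, M replicates 1 and 2 both lay above M replicates 3 and 4, the exception being Sod1, against 21.9% of all genes lower in D and 19.3% of all tested genes. Sqstm1, Hmox1, Srxn1 and Prdx1 had the same order in the D libraries too. They are 33.3% of the 12, against 7.0% of all genes lower in D and 4.4% of all tested genes. Gss, Txnrd1, Prdx6 and Sod2, which did not pass, also had this order in both groups. Without M replicates 1 and 2, a setting chosen after the data were seen, all 12 still lay below 0 but their median moved to -0.43 from -0.63, and only Gclc still passed. In that fit of 4 against 2 libraries 1822 of all genes were called, against 4456 with all libraries. Sqstm1 was then at -0.12, Nqo1 at -0.26, Gclm at -0.36, Srxn1 at -0.43, Hmox1 at -0.62 and Gclc at -0.82. All 8 higher genes stayed above 0 there, with a median of 0.45 against 0.41, and only Glrx still passed. The 8 higher genes had in common that each was highest in D replicate 3, the case for 69.3% of all genes higher in D. That library also had the highest sums of neutrophil markers (69710 CPM, against 44786 to 56747 CPM in the other D libraries), macrophage markers (11574 CPM, against 7158 to 8486 CPM), monocyte markers and eosinophil markers. Without it the 8 higher genes all still passed, with a median of 0.33.

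**Figure D5:**
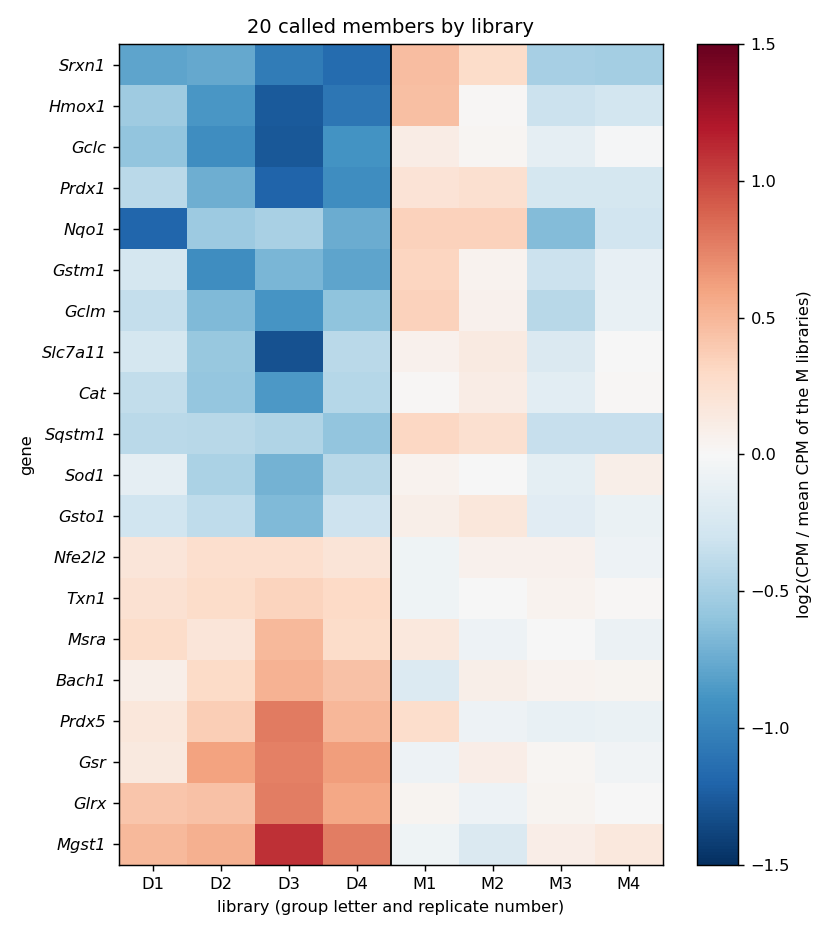
The 20 genes past the threshold in each library, as log2 of CPM over the mean of the 4 M libraries, from the largest decrease at the top to the largest increase at the bottom. Srxn1 and Sqstm1 are above the M mean in M replicates 1 and 2 and below it in M replicates 3 and 4, and the strongest colours on both sides fall in D replicate 3.

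Per transcript length, the most abundant of the 33 genes in both groups was Gpx1, at 939 ± 156 TPM in D and 1061 ± 129 TPM in M libraries (SD, n = 4 each). Prdx1 had rank 6 in D (379 ± 101 TPM) and rank 2 in M libraries (691 ± 125 TPM). Hmox1 had rank 11 in D (261 ± 66.1 TPM) and rank 6 in M libraries (519 ± 121 TPM), and Glrx rank 5 in D (423 ± 31.5 TPM) and rank 11 in M libraries (307 ± 12.6 TPM). Among those with the lowest levels were Nqo1 (10.04 ± 1.85 in D and 17.5 ± 5.39 TPM in M libraries) and Gss (10.9 ± 1.10 and 15.7 ± 3.38 TPM), which lay within each other's spread. TPM ratios within a library do not depend on the scaling between libraries. The ratio of Gsr to Gclc, recycling over synthesis, was 16.1, 28.8, 40.9 and 28.0 in D replicates and 8.65, 10.3, 11.1 and 9.89 in M replicates. Prdx5 over Prdx1 was 1.14 to 3.04 in D and 0.617 to 0.864 in M libraries, and Keap1 over Nfe2l2 was 0.103 to 0.125 in D and 0.139 to 0.169 in M libraries. The groups were apart for each of these 3 ratios. In each of them the upper and lower gene had log2 fold changes of opposite sign. The ratios therefore restate those changes and are no separate result. Txnrd1 over Txn1 (0.103 ± 0.0170 in D and 0.164 ± 0.0380 in M libraries) and Sod2 over Sod1 (0.164 ± 0.0171 and 0.126 ± 0.0204) were apart too. They likewise restate the log2 fold changes of their genes (Txnrd1 -0.39, Txn1 0.28, Sod2 -0.05 and Sod1 -0.42). Bach1 over Nfe2l2 overlapped (0.279 ± 0.0306 in D and 0.258 ± 0.0191 in M libraries), as did Gclc over Gclm (0.346 ± 0.0207 and 0.431 ± 0.0629).

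A wider list of 127 other antioxidant genes, of which 113 were tested, gave a share near that of the whole transcriptome: 19 were higher and 24 lower in D, 38.1% in all against 34.7% of all tested genes, with a median of -0.07. Haem breakdown and further NRF2 targets held 9 lower and 4 higher of 26. Blvrb, biliverdin reductase B, was lower at 21.6 ± 2.65 CPM in D and 38.6 ± 1.31 CPM in M libraries (-0.83 ± 0.09, adjusted p = 0.000147), and so was Ephx1, an epoxide hydrolase, at 4.37 ± 1.43 and 31.3 ± 4.35 CPM (adjusted p = 2.85e-05). Ugdh, which makes UDP-glucuronate, was higher at 110 ± 4.15 and 79.5 ± 1.61 CPM (0.46 ± 0.06, adjusted p = 0.000298), although with its most abundant transcript it was at 0.05 (adjusted p = 0.684). Fth1, the ferritin heavy chain, had 2473 ± 362 CPM in D and 4220 ± 785 CPM in M libraries (-0.77 ± 0.15, adjusted p = 0.00292) and passed in each of the 22 alternatives, and the leukotriene and prostaglandin reductase Ptgr1 had 34.1 ± 4.80 and 58.1 ± 16.7 CPM (-0.77 ± 0.19, adjusted p = 0.0122). Fth1 and Ptgr1 were named after their values were seen. Further genes of glutathione synthesis, breakdown and transport held 3 higher and 3 lower of 16, among them the glutamine transporter Slc1a5 (176 ± 36.3 in D and 336 ± 35.4 CPM in M libraries; adjusted p = 0.000851), the leukotriene-cleaving Ggt5 (43.0 ± 9.02 and 26.05 ± 3.86 CPM; adjusted p = 0.00673) and the mitochondrial carrier Slc25a40 (13.05 ± 0.555 and 9.76 ± 1.27 CPM; adjusted p = 0.0139, or 0.0506 with library totals). The calls of Ggt5 and Slc25a40 ended with their most abundant transcript (adjusted p = 0.0742 and 0.898).

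Enzymes of NADPH supply, the reductant of both the glutathione and the thioredoxin system, had 5 higher and 2 lower of 15 members (46.7%, against 34.7% of all tested genes), with a median of 0.17. Nadk, which makes NADP from NAD, was highest among them in change, at 507, 693, 831 and 631 CPM in D and 420, 416, 426 and 381 CPM in M replicates (0.70 ± 0.13, adjusted p = 0.00262). G6pdx, the entry enzyme of the pentose phosphate pathway, Taldo1 of its later part and the isocitrate dehydrogenase Idh1 were higher by 0.29, 0.28 and 0.31 on the log2 scale (adjusted p = 0.0131 to 0.0268), and were named after their values were seen. The calls of G6pdx and Taldo1 ended with library totals (adjusted p = 0.0708 and 0.0588) and without M replicate 2 or 4 (adjusted p = 0.0518 to 0.0834). That of G6pdx also ended without D replicate 4 or M replicate 3 (adjusted p = 0.0582 and 0.0728). Pgls, the second enzyme of that pathway, was lower (35.6 ± 3.10 in D and 53.2 ± 8.30 CPM in M libraries; adjusted p = 0.00294). The transcript of Nnt, the gene of the mitochondrial transhydrogenase, was lower too (53.2 ± 8.11 and 76.7 ± 9.76 CPM; adjusted p = 0.00739). These are RNA levels, and whether a working Nnt enzyme is made in this mouse strain was not tested. Neutrophil markers were higher in D libraries, with a median log2 fold change of 0.58 over 18 genes. Whether this bears on the NADPH genes was not tested.

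Further thioredoxin-fold proteins and selenoproteins had 6 higher and 3 lower of 20, that is 45% called, against 34.7% of all tested genes. Selenot, a selenoprotein of the endoplasmic reticulum, was at 256 ± 6.07 CPM in D and 176 ± 10.1 CPM in M libraries (0.54 ± 0.06, adjusted p = 0.000241), nucleoredoxin (Nxn) at 35.7 ± 2.64 and 26.9 ± 2.26 CPM (adjusted p = 0.00490), and the small selenoprotein Selenow at 11.0 ± 2.91 and 21.3 ± 3.49 CPM (-0.95 ± 0.19, adjusted p = 0.00371). Txnip, the thioredoxin inhibitor that glucose induces, was at 264, 428, 567 and 366 CPM in D and 203, 262, 255 and 231 CPM in M replicates (0.77 ± 0.20, adjusted p = 0.0159), and was named after its values were seen. D replicate 1 lay close to M replicate 2. Further glutathione transferases, peroxidases and glutaredoxins had 0 higher and 3 lower of 19, or 15.8% against the same 34.7%: Gstt2 (6.11 ± 0.940 in D and 10.8 ± 1.91 CPM in M libraries; adjusted p = 0.00265), the prostaglandin D synthase Hpgds (20.6 ± 4.40 and 38.4 ± 11.6 CPM; adjusted p = 0.0133, or 0.0560 without D replicate 3) and the glyoxalase Hagh (16.03 ± 0.904 and 18.97 ± 0.874 CPM; adjusted p = 0.0381). The call of Hagh ended without any 1 library except M replicate 2 (adjusted p = 0.0543 to 0.0914) and with the block (adjusted p = 0.0560). With the most abundant transcript the calls of Txnip, Gstt2, Hpgds and Hagh ended too (adjusted p = 0.0523 to 0.5005). NRF2 partners and regulators had 1 higher and 4 lower of 16, and their 31.2% is near the share over all tested genes. The largest change was that of Bach2, a relative of Bach1 used in B cells, at 17.0 ± 6.89 CPM in D and 179 ± 25.0 CPM in M libraries (-3.39 ± 0.28, adjusted p = 0.000106), beside a median of -2.83 over the tested B cell markers. The ubiquitin ligase subunit Btrc, which can target NRF2 apart from KEAP1, was at 17.4 ± 2.18 and 30.7 ± 1.25 CPM (-0.82 ± 0.10, adjusted p = 0.000197), though its call ended with its most abundant transcript (adjusted p = 0.333), and sestrin 3 (Sesn3) at 3.205 ± 0.104 and 5.19 ± 0.839 CPM (adjusted p = 0.00539).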

How the data were processed

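RNA was sequenced, SOAPnuke 1.5.6 filtered the reads, and an aligner spelled HISTA2 2.1.0 mapped them to mm10, per the labels. GRCm38 is named too in the submitters' processing notes. Quantifier, annotation release and use of strand: not given in the sources used here. Per the file headers, the deposited table lists estimated counts for each RefSeq transcript without normalization. The authors also deposited TPM and FPKM values, scaled by transcript length. A further 16 deposited columns (8 of normalized counts, 8 of group means) were not used.

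The values of 60072 transcripts were added up for each gene, then rounded, and 17836 of 17890 genes had a symbol in RefSeq's GRCm38 table. The function filterByExpr dropped weakly counted genes (minimum count 10, minimum total 15). Groups were tested by quasi-likelihood in edgeR 4.0.16 (R 4.3.3), with group as the sole term, TMM scaling and robust fitting, and with Benjamini-Hochberg adjustment over all 12839 tested genes and a threshold of 0.05. The study's own text names limma with a p threshold and mentions no adjustment. CPM use TMM-scaled library sizes; values are mean ± SD over libraries and log2 fold changes ± SE, D over M. The fit was checked on simulated counts. The members and lists were chosen with earlier results of these data known. Genes were named by rule: all 33 members, and up to 3 called genes with the lowest p from each group of the wider list. Exceptions are marked.

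No 2 replicates of a group were alike within counting error (chi-square over genes, 6.49 to 66.6 for each gene). Same-numbered D and M libraries deviated together from their group means (correlations 0.138 to 0.205, each above 0.1, against -0.239 to 0.116 for other pairs). The meaning of the numbers is not stated, so the pairing comes from this check and from the shared numbers. The 22 alternatives covered other scaling, filters, DESeq2 1.42.0, limma 3.58.1 (voom, and log2 FPKM with pseudocounts 1 and 0.1 and log2 TPM with 1, after a filter on low values), the most abundant transcript, the replicate block, each library left out, and pairs of libraries left out.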

Additional observations from a re-analysis of the deposited data

Results flagged for a closer look

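In 66 checks (33 genes in the D and in the M libraries), 4 libraries stood far from the other 3 of their group, with a gap to the nearest, as a part of the group's range, above Dixon's critical value. Chance flags about 1 in 20 groups. M replicate 1 was apart for 3 genes: Keap1 was at 65.0 CPM there and at 58.2 to 59.2 CPM in the other M libraries, Bach1 at 159 CPM against 188 to 194 CPM, and Prdx5 at 410 CPM against 316 to 324 CPM. D replicate 3 was apart for Gpx4, at 166 CPM against 153 to 155 CPM in the other D libraries.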

How the results depend on the processing

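The 12 lower genes stayed below 0 and the 8 higher genes above 0 in each of the 22 alternatives. Without 1 library, 5 to 8 genes were higher (8 with all) and 8 to 14 lower (12 with all). With the most abundant transcript 5 were higher and 9 lower, and 2052 of all genes were called instead of 4456. That fit changed the counts of other genes too, so a call could end, as for Nqo1, with a gene's own counts unchanged. Without M replicates 1 and 2 the 33 genes gave 1 higher and 1 lower, all genes 1822 calls, and the wider list 5 higher and 12 lower (19 and 24 with all). In the wider list 11 were higher with library totals, 12 with FPKM at either pseudocount and 7 with the most abundant transcript, and 13 were lower with that transcript. Without 1 library the wider list had 14 to 23 higher and 15 to 29 lower, and 15 lower without D replicates 1 and 3. Of the calls over all genes 50.1% were higher with TMM and 31.3% with library totals. They were 31.0% to 31.2% with FPKM and 33.1% with TPM, where the test and the filter changed too. The 33 genes then had 6 higher and 17 or 18 lower.

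With the replicate block 7 were higher and 15 lower, and it changed no call of the 33 other than those of Keap1, Nqo1, Gss, Txnrd1, Txnrd2 and Prdx5. The signs that turned were all of genes that did not pass. The log2 fold change of Gss was 0.359 and that of Prdx4 was -0.119 with the most abundant transcript. That of Gpx4 was -0.0743 with library totals, -0.0737 and -0.0740 with FPKM at pseudocounts 1 and 0.1, -0.0587 with TPM and -0.00029 with that transcript. The log2 fold change of Prdx3 was 0.0096 with DESeq2's size factors, 0.0099 in DESeq2's test, 0.0382 without D replicates 1 and 3, and -0.0334 to 0.0634 without 1 library. The log2 fold change of Prdx6 was -0.0138 with upper-quartile factors, -0.0941 with library totals, -0.0904 and -0.0911 with FPKM at pseudocounts 1 and 0.1, -0.0757 with TPM, -0.0047 without D replicates 1 and 3, and -0.0384 to 0.0899 without 1 library. The log2 fold change of Sod2 was 0.0510 without D replicates 1 and 3, 0.166 without M replicates 1 and 2, and -0.129 to 0.0489 without 1 library. The cause of these changes was not tested.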

Other observations

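The table is per transcript. Among the 33 genes, Slc7a11 alone had a leading transcript whose share of the gene's counts did not overlap between groups, and several of the genes have a single transcript. That transcript of Slc7a11, a curated one, took 61.4% ± 5.34 of the gene's estimated counts in D and 78.6% ± 7.83 in M libraries (SD, n = 4 each). Its predicted transcript of rank 3 took 11.7% ± 0.750 in D and 3.80% ± 2.85 in M libraries, without overlap, and that of rank 2 overlapped. The predicted transcript of rank 3 of Gss took 0.042% ± 0.084 in D and 29.6% ± 29.9 in M libraries. Those shares did not overlap either, but M replicate 1 was at only 0.212%. The shares of the leading Txnrd1 transcript overlapped, with 62.3% ± 6.44 in D and 56.7% ± 5.68 in M libraries. The 2 transcripts of Gclc, 1 predicted and 1 curated, shared its counts at 54.0% ± 15.8 in D and 48.9% ± 11.1 in M libraries for the predicted form, with a spread between libraries wider than the difference. Estimated counts depend on how reads shared by transcripts are split, and these shares were not tested.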
